A study of Mus musculus with 6 samples.

Results

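The mature arms of miR-192, miR-194 and miR-215 were examined in small RNA libraries from mouse liver. The members were chosen by name, as the rows of the deposited read-count table that carry 1 of 7 mature names. All 7 were found among the 1907 mature microRNAs of the table, and all 7 passed the filter of the tests, at least 4 reads in at least 3 libraries. The tested mice, 3 males of mixed background, ate for 4 weeks a chow made of 75% granulated regular food and 25% soy bean powder. The control mice, 3 males of the same labelled background, ate 100% granulated regular food. All mice were 12 weeks old by their labels, and by the methods of the study they began the diets at that age. The question was whether the soy-enriched diet alters liver microRNAs. Which strains were mixed, and in what part in each mouse, is not given in the sources used here, and each library stands for 1 piece of whole liver from 1 mouse.

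MicroRNAs are short RNAs that pair with messenger RNAs mainly through bases 2 to 8 of the microRNA, the seed, and lower the stability or translation of the messenger. Each hairpin gives a 5p and a 3p arm, and usually 1 of them, the guide, is the arm that is loaded and kept. miR-192 and miR-194 are abundant in liver, gut and kidney epithelium. miR-215 is best known as a microRNA of intestinal epithelium, and all of these guides were described in human cancer cells as induced by p53.

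The family lies in a pair of clusters on different chromosomes. Sequences and positions are those of RefSeq on GRCm38.p6, in which all 7 names were matched, and describe that reference, not the mapping of the authors. In the cluster on chromosome 19, the hairpin of miR-194-2 (6264643 to 6264728, plus strand) lies 115 bp before that of miR-192 (6264844 to 6264932). In GENCODE M21 no other gene covers either hairpin; Atg2a, an autophagy gene, ends 2307 bp before miR-194-2, and the long non-coding RNA Gm14963 starts 3862 bp after miR-192. In the cluster on chromosome 1, the hairpin of miR-194-1 (185313319 to 185313385, plus strand) lies 195 bp before that of miR-215 (185313581 to 185313692). Both chromosome 1 hairpins lie in an intron of Iars2, the mitochondrial isoleucyl-tRNA synthetase, which runs on the opposite strand, and in the non-coding RNA gene 2010103J01Rik of their own strand, miR-194-1 in its intron and miR-215 in its exon. The hairpins are shown to tell the arms apart, with the mature arms in capitals.
Mir194-2: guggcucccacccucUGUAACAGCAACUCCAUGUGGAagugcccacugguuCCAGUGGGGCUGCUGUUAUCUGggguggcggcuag
Mir192: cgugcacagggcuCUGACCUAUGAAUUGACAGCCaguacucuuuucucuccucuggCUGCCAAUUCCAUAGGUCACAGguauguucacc
Mir194-1: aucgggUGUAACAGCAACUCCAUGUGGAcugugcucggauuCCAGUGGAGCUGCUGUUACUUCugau
Mir215: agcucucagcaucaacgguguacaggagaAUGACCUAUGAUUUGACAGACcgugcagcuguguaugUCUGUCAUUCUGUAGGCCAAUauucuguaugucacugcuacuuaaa

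The guides fall into 2 seed groups. miR-192-5p and miR-215-5p share the seed UGACCUA, and no other of the 1679 mature mouse microRNAs of the reference carries it, whereas miR-194-5p is the sole carrier of GUAACAG. The guides are printed with the seed in capitals.
mmu-miR-192-5p: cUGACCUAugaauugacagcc
mmu-miR-215-5p: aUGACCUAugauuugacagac
mmu-miR-194-5p: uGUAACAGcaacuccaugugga
Along their 21 bases, miR-192-5p and miR-215-5p differ at 3 positions, which are C1A, A12U and C20A with positions counted from the 5′ end, the miR-192-5p base first and the miR-215-5p base last. The seed is therefore identical in the pair, and the reads can be told apart by 3 bases. miR-194-5p is the same sequence at both loci, so its reads cannot be assigned to a chromosome. The 3p arms of miR-194 can, since miR-194-1-3p and miR-194-2-3p differ at 4 of 22 bases (A8G, C19U, U20C and C22G, the miR-194-1-3p base first), of which the first falls in their seed.
mmu-miR-194-1-3p: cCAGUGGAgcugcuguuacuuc
mmu-miR-194-2-3p: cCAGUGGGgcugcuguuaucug
The arms specific to chromosome 1 are thus miR-194-1-3p, miR-215-5p and miR-215-3p, and those specific to chromosome 19 are miR-192-5p, miR-192-3p and miR-194-2-3p.

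The soy libraries held 10032094 to 12762916 microRNA reads and the regular libraries 5727546 to 10325712. Levels are given as CPM, reads per 1000000 of the TMM-scaled library size, a scaling that evens out libraries over most microRNAs. miR-122-5p, the defining hepatocyte microRNA, was abundant as the liver label implies, at 16436 to 22450 CPM on the soy chow and 19605 to 26241 CPM on the regular chow. It lay below miR-192-5p in every library. Over all 437 microRNAs that passed the filter, edgeR's quasi-likelihood test called 0 (0%) between the diets at an adjusted p under 0.05, limma-voom called 0 and DESeq2 called 2, neither of them a member. 22 microRNAs (5.03%) had an unadjusted p under 0.05 in edgeR.

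By reads, miR-192-5p was the second most abundant microRNA of these livers, and its level was similar in all 6 mice. It stood at 235772, 203575 and 187576 CPM in soy replicates 1, 2 and 3 against 224206, 197203 and 160963 CPM in regular replicates 1, 2 and 3. In both diets replicate 1 was the highest and replicate 3 the lowest, and the ranges overlapped. The highest of the 6 libraries was 1.46 times the lowest. The mean was 208974 ± 24548 CPM on soy and 194124 ± 31734 CPM on regular chow (SD, n = 3 each), a log2 fold change of 0.11 ± 0.15 (SE) with an adjusted p of 0.982 in edgeR. This is the mixture of all liver cells, in which fewer cells of a type and less RNA per cell cannot be told apart.

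The other arm of the same hairpin, miR-192-3p, was sparse. It had 351, 162 and 176 reads in soy libraries against 136, 192 and 126 reads in regular libraries, or 28.5, 16.1 and 17.6 CPM against 13.3, 19.2 and 20.2 CPM. Soy replicate 1 was the highest and regular replicate 1 the lowest, and the groups overlapped. The log2 fold change was 0.24 ± 0.37 (SE; edgeR adjusted p = 0.982), and its sign turned without soy replicate 1 (-0.055). The 5p arm exceeded the 3p arm by 8259 to 12630 times in soy and by 7983 to 16866 times in regular libraries, so that miR-192-5p was by far the more abundant arm in every liver.

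miR-194-5p, whose sequence lies at both loci, was the steadiest member. It stood at 6281, 5823 and 6675 CPM in soy against 5696, 6265 and 5059 CPM in regular livers. The 2 highest levels were in soy and the 2 lowest in regular livers, with overlap between them. The mean was 6260 ± 426 CPM on soy and 5673 ± 603 CPM on regular chow (SD, n = 3 each), a log2 fold change of 0.14 ± 0.15 (SE; edgeR adjusted p = 0.982). miR-192-5p gave 28.1 to 37.5 reads per read of miR-194-5p in soy and 31.5 to 39.4 in regular libraries.

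The 3p arms of miR-194 showed how the loci differed between mice. miR-194-2-3p of chromosome 19 had 216, 417 and 172 reads in soy libraries against 252, 133 and 206 reads in regular libraries, or 17.6, 41.5 and 17.2 CPM against 24.6, 13.3 and 33.0 CPM. Soy replicate 2 was the highest and regular replicate 2 the lowest, and the groups overlapped. Its log2 fold change of 0.11 ± 0.46 (SE; edgeR adjusted p = 0.982) turned sign without soy replicate 2 (-0.44) or without regular replicate 2 (-0.18).

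miR-194-1-3p of chromosome 1 had 17, 97 and 97 reads in soy libraries against 0, 47 and 5 reads in regular libraries. The levels were 1.38, 9.65 and 9.72 CPM against 0, 4.70 and 0.80 CPM. Replicates 2 and 3 on soy were the highest of the 6, and soy replicate 1 lay within the regular range. The 0 of regular replicate 1 allows up to 0.293 CPM (3 reads of its total). The log2 fold change was 1.90 ± 1.33 (SE; edgeR adjusted p = 0.982), and it was 4.18 without regular replicate 2.

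As a share of the miR-194 3p reads, those of chromosome 1 made up 7.30%, 18.9% and 36.1% in soy replicates 1, 2 and 3 against 0%, 26.1% and 2.37% in regular replicates 1, 2 and 3. The 95% exact binomial intervals, which cover counting error only, were 4.31% to 11.4%, 15.6% to 22.5% and 30.3% to 42.1% in soy, and 19.9% to 33.2% and 0.774% to 5.44% in regular replicates 2 and 3. The share thus differed between mice of the same diet by more than counting error, and chromosome 19 gave most of these reads in every library. A count of 0 among the 252 such reads of regular replicate 1 allows a share of up to 1.19%.

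**Figure D1:**
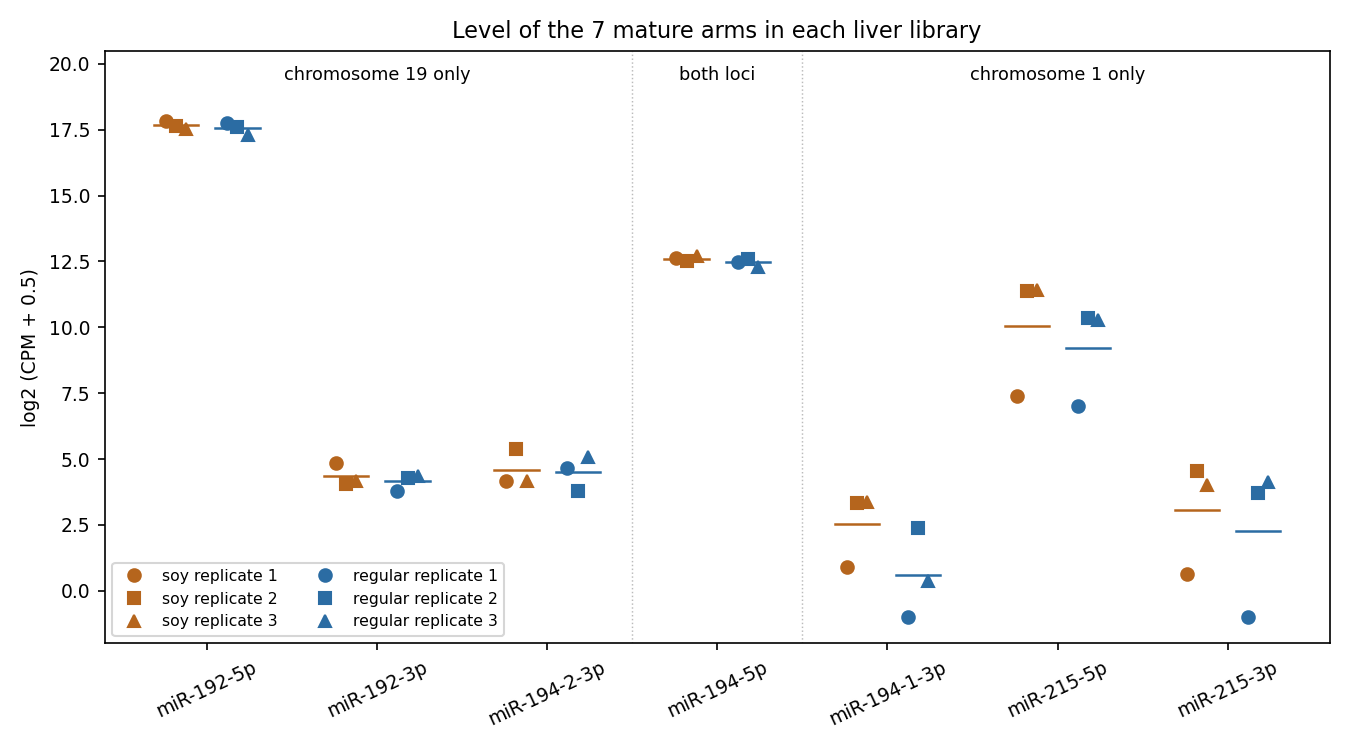
Level of each of the 7 arms as log2 (CPM + 0.5) on the y axis, for soy libraries left and regular libraries right of each arm; symbols mark the replicate number, short lines the group mean, and dotted lines separate the arms by the chromosome they come from. A library without reads lies at the lowest position. miR-192-5p and miR-194-5p form tight groups, whereas both miR-215 arms are lowest in replicate 1 of each diet.

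miR-215-5p differed more between mice of 1 diet than between the diets. It had 2045, 26929 and 27062 reads in soy replicates 1, 2 and 3 against 1301, 13029 and 7748 reads in regular replicates 1, 2 and 3. The soy livers had levels of 166.3, 2679 and 2711 CPM, against 127.2, 1302 and 1240 CPM in the regular ones. Replicate 1 was the low library in each diet, 16.1 times below the next soy library and 9.75 times below the next regular library. The mean was 1852 ± 1460.0 CPM on soy and 889.7 ± 661 CPM on regular chow (SD, n = 3 each), with overlapping ranges. The log2 fold change was 1.06 ± 0.92 (SE), with a 95% interval of -1.005 to 3.12 and an adjusted p of 0.982 in edgeR.

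Among the other 4 livers, a choice made after the values were seen, both soy levels of miR-215-5p lay above both regular levels. How many of all microRNAs separate in this way was not counted. Without both replicate 1 libraries, a setting chosen after the values were seen, the log2 fold change was 1.17, and the adjusted p in edgeR was 0.166 with 2 mice against 2. Without soy replicate 1 it was 1.60 (adjusted p = 0.840), and without regular replicate 1 it was 0.61 (adjusted p = 0.974). Without the filter the call differed. When all 716 microRNAs with a read were fitted, edgeR called 8 of them (1.12%), miR-215-5p among them, with a log2 fold change of 1.14 (adjusted p = 9.79e-06). Replicate 1 lay 16.1 times below the next soy library and 9.75 times below the next regular library. The unfiltered p does not reflect that spread between mice. The adjusted p of miR-215-5p was 0.983 in DESeq2 and 0.843 in limma-voom.

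miR-215-3p, the sparse arm of the same hairpin, was like its partner low in replicate 1 of each diet. It had 13, 230 and 158 reads in soy libraries against 0, 125 and 107 reads in regular libraries, or 1.06, 22.9 and 15.8 CPM against 0, 12.5 and 17.1 CPM. Soy replicate 1 and regular replicate 1 were again the lowest, and the other 4 libraries lay between 12.5 and 22.9 CPM. The 0 in regular replicate 1 allows up to 0.293 CPM, so that the next regular library was at least 42.6-fold higher by the same 3-read limit. The log2 fold change between the diets was 0.43 ± 1.31 (SE; edgeR adjusted p = 0.982), and it turned sign without soy replicate 2 (-0.22) or without regular replicate 1 (-0.09).

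By reads, the shared seed was supplied almost wholly by miR-192-5p in every liver. Of the summed reads of miR-192-5p and miR-215-5p, miR-215-5p made up 0.0705%, 1.30% and 1.42% in soy replicates 1, 2 and 3 against 0.0567%, 0.656% and 0.764% in regular replicates 1, 2 and 3. The 95% exact binomial intervals of the lowest shares were 0.0675% to 0.0736% in soy replicate 1 and 0.0536% to 0.0599% in regular replicate 1. How reads between such near-identical sequences were assigned is not given in the sources used here. The shared-seed guides together took 22.7%, 20.7% and 18.7% of all microRNA reads in soy libraries against 22.4%, 19.2% and 17.7% in regular libraries. All 7 members together took 21.3% ± 2.005 (SD, n = 3) of the reads in soy and 20.4% ± 2.40 (SD, n = 3) in regular libraries (two-sided exact permutation p = 0.7).

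Taken as a list, all 7 members had a log2 fold change above 0, against 48.5% of the 437 microRNAs tested, and their median was 0.24 against -0.02 over all microRNAs. The arms are not independent of each other, since they share hairpins, transcripts and libraries, and 3 of them turned sign when a library was left out, as given above. 2 of the 7, miR-194-1-3p and miR-215-5p, had a change of at least 1 on the log2 scale, as 19.7% of all microRNAs did in either direction. None of the 7 passed the test, none had an unadjusted p under 0.05, and none had soy and regular ranges that did not overlap, as 12.8% of all microRNAs did. The intervals set what these 6 mice could show. For miR-192-5p and miR-194-5p they ran from -0.22 to 0.44 and from -0.19 to 0.47 on the log2 scale. For the chromosome 1 arms they were wide, from -1.08 to 4.87 for miR-194-1-3p and from -2.49 to 3.35 for miR-215-3p.

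**Figure D2:**
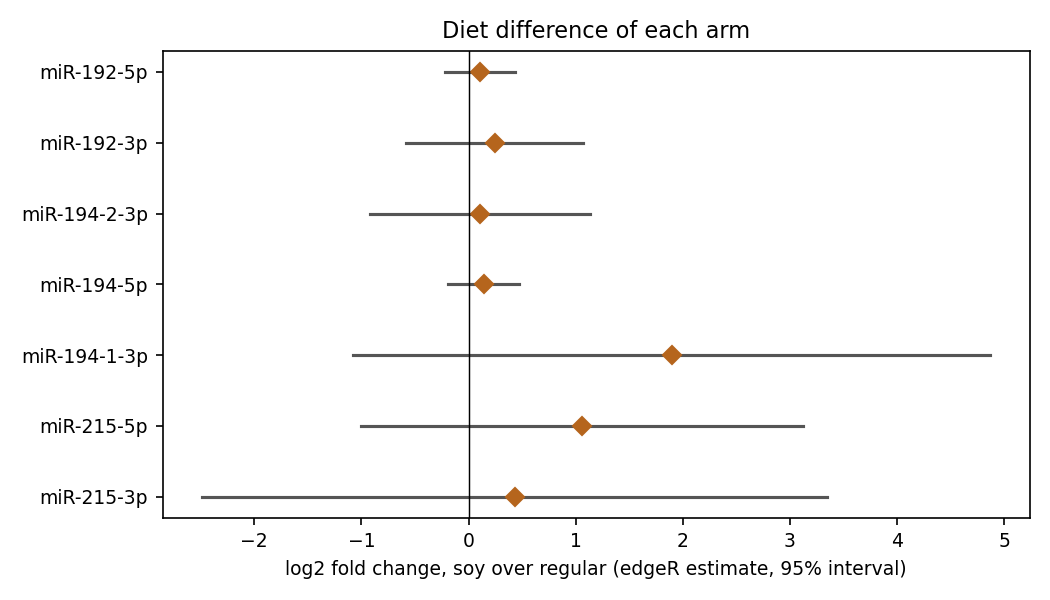
Log2 fold change of each arm, soy over regular, as edgeR's estimate (diamond) with its 95% interval (line); arms run from those of chromosome 19 at the top to those of chromosome 1 at the bottom. All 7 intervals cross 0, and those of miR-192-5p and miR-194-5p are the narrowest.

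Ratios within a library, which do not depend on scaling, were compared to ask whether members changed relative to each other. The log2 ratio of miR-194-5p over miR-192-5p was -5.23, -5.13 and -4.81 in the soy libraries, against -5.30, -4.98 and -4.99 in the regular ones (difference 0.03, exact permutation p = 0.9). This ratio stayed within narrow limits in all mice, as did the levels of both guides. The log2 ratio of miR-215-5p over miR-192-5p was -10.47, -6.25 and -6.11 in the soy libraries, against -10.78, -7.24 and -7.02 in the regular ones (difference 0.74, exact permutation p = 0.5). It fell into a low value in replicate 1 of each diet and higher values elsewhere, in the regular as in the soy livers. The log2 ratio of miR-194-2-3p over miR-194-1-3p, with 0.5 read added to each arm, was 3.63, 2.10 and 0.82 in the soy libraries, against 8.98, 1.49 and 5.23 in the regular ones (difference -3.05, exact permutation p = 0.3).

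Arm ratios did not separate the diets either. The log2 ratio of miR-192-5p over miR-192-3p was 13.33 ± 0.31 in soy and 13.44 ± 0.55 in regular libraries (SD, n = 3 each; exact permutation p = 0.9). The log2 ratio of miR-194-5p over its summed 3p arms was 7.72 ± 0.80 in soy and 7.84 ± 0.61 in regular libraries (SD, n = 3 each; exact permutation p = 0.9). For miR-215-5p over miR-215-3p it was 7.24, 6.87 and 7.42 in the soy libraries, against 11.35, 6.70 and 6.17 in the regular ones (exact permutation p = 1), where 11.35 rests on the 0 of miR-215-3p in regular replicate 1. Of these 8 two-sided tests on shares and ratios the smallest Benjamini-Hochberg value was 1, and with 3 mice against 3 the smallest p such a test can give is 0.1.

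**Figure D3:**
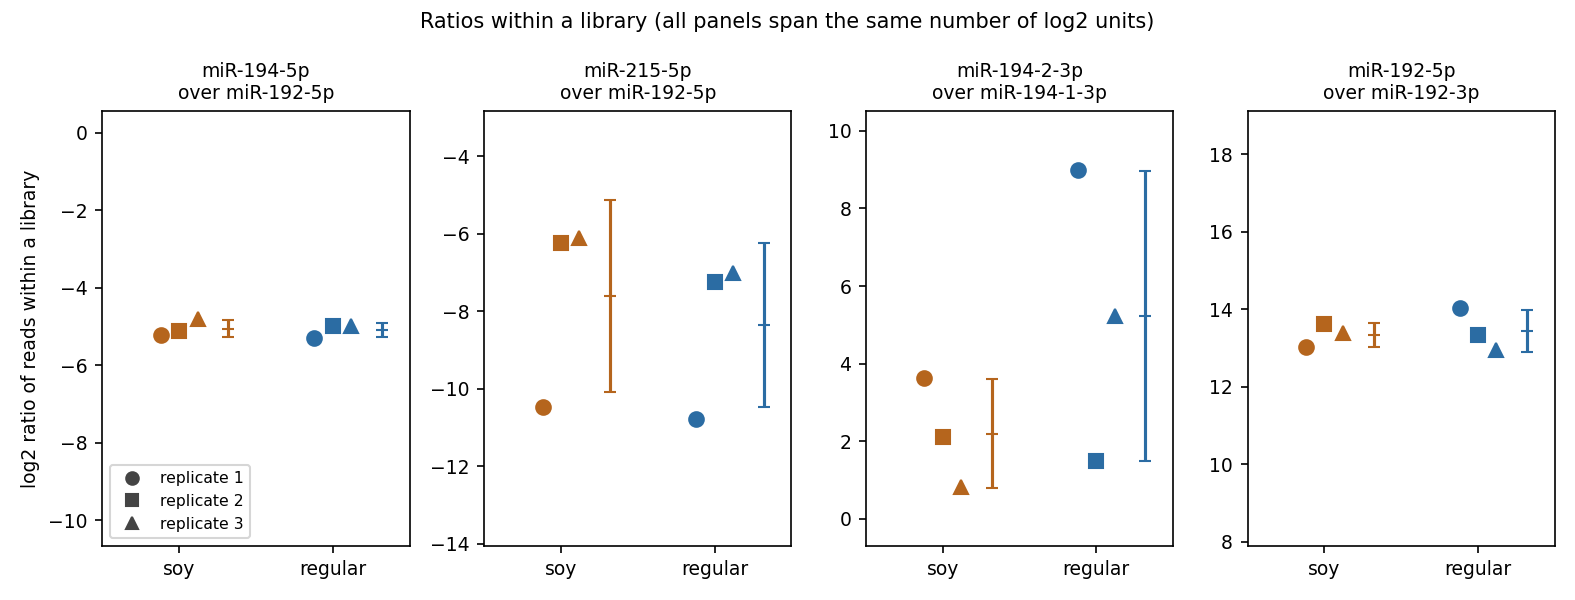
Log2 ratio of reads within each library (y axis) for 4 pairs of arms, soy left and regular right; symbols mark the replicate number and bars the mean ± SD of 3 mice. All panels span the same number of log2 units, and miR-194-5p over miR-192-5p stays within -5.30 to -4.81, whereas miR-215-5p over miR-192-5p runs from -10.78 to -6.11.

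The spread between mice of 1 diet was widest in the miR-215 arms. It is given here as the SD of log2 (CPM + 0.5) within a diet, pooled over the diets, as a description. It was 0.207 for miR-192-5p and 0.130 for miR-194-5p, below the median of 0.229 over the 109 microRNAs with a mean of at least 100 CPM. For miR-215-5p it was 2.13, the highest of those 109, and the next, miR-10b-5p, had 0.925. Among the sparse arms, miR-192-3p had 0.380 and miR-194-2-3p 0.682, against a median of 0.504 over the 132 microRNAs at 5 to 50 CPM. miR-215-3p had 2.51, the highest of all 437 microRNAs tested, with miR-215-5p in second place, and miR-194-1-3p had 1.56, at rank 18. The mean of miR-194-1-3p, 4.37 CPM, lay below that range, and no median was computed for microRNAs of its level.

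The arms of chromosome 1 varied together in that all were lowest in replicate 1 of each diet. The log2 difference between miR-215-5p and miR-215-3p had a within-diet SD of 0.721, and that between miR-215-5p and miR-194-1-3p one of 1.01, both below the spread of each arm taken alone. Between miR-194-1-3p and miR-194-2-3p, which come from different chromosomes, the SD was 1.80, above that of either arm. On chromosome 19 it was 0.436 between miR-192-5p and miR-192-3p and 0.771 between miR-192-5p and miR-194-2-3p, also above either arm alone. For miR-192-5p and miR-194-5p it was 0.201, above the 0.130 of miR-194-5p and close to the 0.207 of miR-192-5p. Regular replicate 3 was the exception to the shared pattern, with miR-215-5p at 1240 CPM and miR-194-1-3p at 5 reads.

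**Figure D4:**
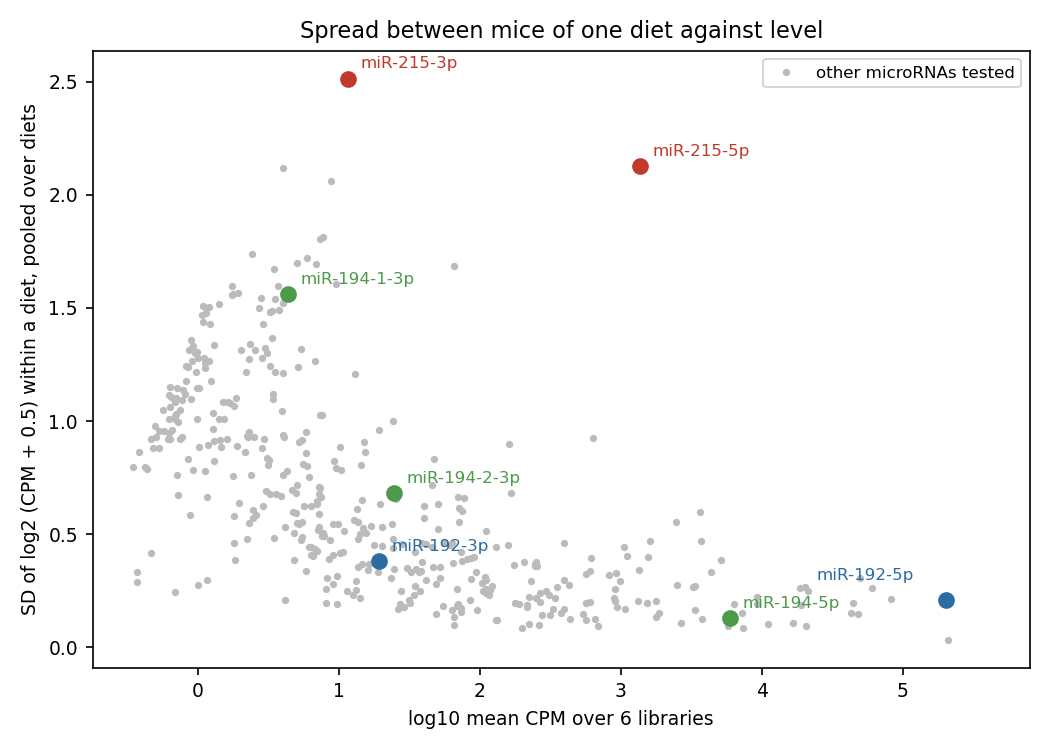
Spread between mice of a diet (y axis, SD of log2 (CPM + 0.5) pooled over the diets) against the log10 mean CPM over 6 libraries (x axis) for 437 microRNAs; grey points are other microRNAs and coloured points the 7 members. miR-215-5p, at an SD of 2.13, lies far above other microRNAs of its level, and miR-192-5p and miR-194-5p lie in the low band of the abundant ones.

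Since miR-215 is known from gut epithelium, microRNAs of gut and bile duct epithelium were set beside it. All 11 listed microRNAs passed the filter, none was at 0 in all libraries, 8 had a log2 fold change above 0 and 3 below, and 0 were called. Their summed level was 5943, 3654 and 3846 CPM in soy replicates 1, 2 and 3 against 4861, 3957 and 3146 CPM in regular replicates 1, 2 and 3, highest in the replicate 1 libraries in which miR-215-5p was lowest. The most abundant were miR-182-5p, at 4004, 1897 and 2001 CPM on soy against 3157, 2122 and 1576 CPM on regular chow, and miR-31-5p, at 656.0 to 703.7 CPM on soy and 632.1 to 746.7 CPM on regular chow. miR-182-5p, which carried the largest part of the sum, was highest in replicate 1 of both diets, as were miR-183-5p and miR-96-5p. No other microRNA of the list was, so the order of the sum did not hold for the list as a whole. miR-31-5p was highest in replicate 1 on soy and lowest in replicate 1 on regular chow, within a narrow range.

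Replicate 1 was the lowest library of both diets for 2 microRNAs of that list, as for 15.6% of all 437 tested, and both were singled out after their values were seen. miR-375-3p, a microRNA of endocrine cells of pancreas and gut, had 170, 1011 and 1544 reads in soy libraries against 90, 496 and 402 reads in regular libraries. It stood at 13.8, 100.6 and 154.7 CPM in the soy livers, against 8.80, 49.6 and 64.3 CPM in the regular ones. Replicate 1 was 7.28 times below the next soy library and 5.63 times below the next regular library. For miR-141-3p, a microRNA of the epithelial miR-200 family, the same gaps were 1.08 and 1.196 times, at 74.1, 79.8 and 113.8 CPM in the soy livers, against 43.5, 52.3 and 52.0 CPM in the regular ones. The part of gut, pancreas or bile duct tissue in the level of miR-215-5p was not tested.

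**Figure D5:**
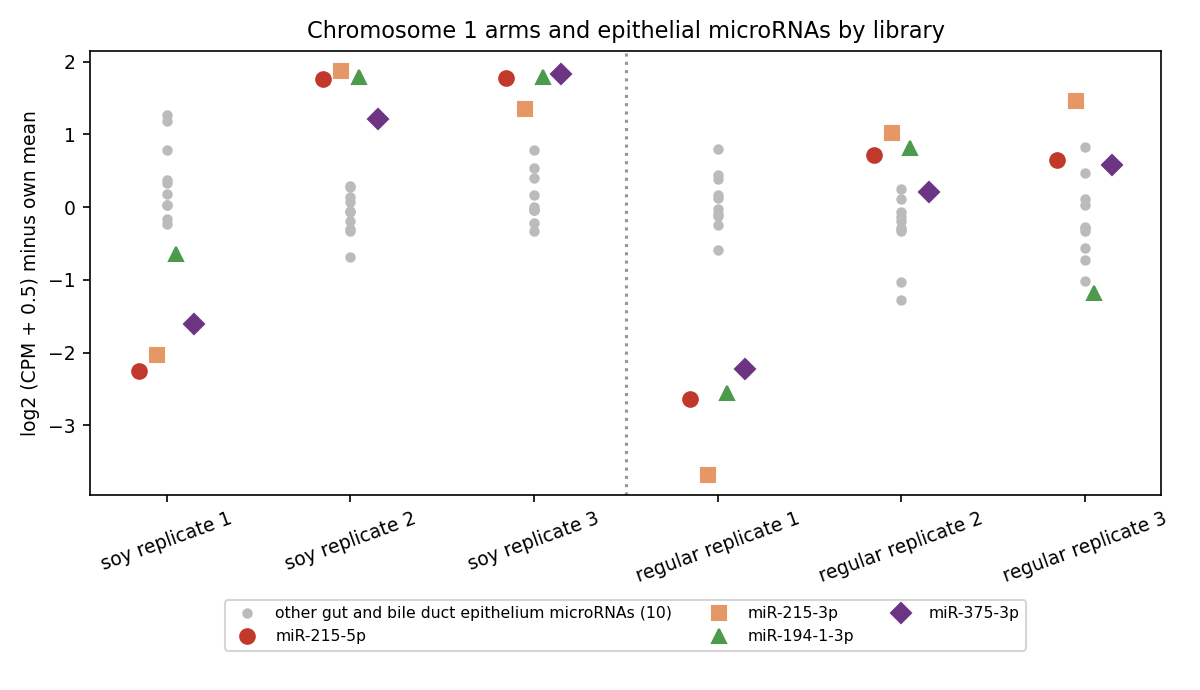
Log2 (CPM + 0.5) minus each microRNA's own mean over 6 libraries (y axis) by library (x axis, soy left of the dotted line and regular right of it), for the 3 chromosome 1 arms, miR-375-3p and the 10 other microRNAs of gut and bile duct epithelium (grey). miR-215-5p, miR-215-3p and miR-375-3p are low in replicate 1 of both diets, whereas the grey points stay closer to 0.

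Lists of microRNAs of other liver cell types did not have replicate 1 as the lowest library in both diets by their summed level, which the most abundant microRNAs of a list carry. Single microRNAs did, namely both arms of miR-802 of the hepatocyte list, miR-142a-3p and miR-223-3p of the leukocyte list and both arms of miR-144 of the erythroid list. In these 6 the next library of the diet was 1.04 to 2.35 times higher. The 5 hepatocyte microRNAs summed to 83061 to 93295 CPM on soy and 101800 to 136583 CPM on regular chow, with 2 of them above and 3 below a log2 fold change of 0. Of the 6 leukocyte microRNAs, summing to 2706 to 3550 CPM on soy and 2066 to 2368 CPM on regular chow, 5 lay above and 1 below 0. The 2 endothelial ones, both arms of miR-126a, summed to 20115 to 21089 CPM on soy and 14482 to 17936 CPM on regular chow, a sum that miR-126a-5p carried (log2 fold change 0.37), while miR-126a-3p was at -0.01 with overlapping levels. In these 3 lists the summed ranges did not overlap between the diets, lower on soy for the hepatocyte list and higher on soy for the others. Yet miR-148a-3p and miR-122-5p, the 2 most abundant of the hepatocyte list, each overlapped between the diets. In the leukocyte list the most abundant, miR-146a-5p, overlapped too, whereas the next, miR-142a-5p, did not. Among single microRNAs, 12.8% of all tested did not overlap, and no such share was computed for sums. The part of these lists in the levels of the members was not tested. The 5 erythroid microRNAs summed to 1406 to 1435 CPM on soy and 793.8 to 1900 CPM on regular chow, and the 6 of 7 mesenchymal ones that passed the filter to 18655 to 24974 CPM on soy and 15885 to 23790 CPM on regular chow. None of the listed microRNAs was called by edgeR, and none of these lists had a microRNA at 0 in all 6 libraries.

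Other microRNAs that p53 induces in human cells were listed for comparison. Of 10 names, 5 passed the filter, 4 of them with a log2 fold change above 0 and 1 below, and 0 were called. miR-34a-5p, the best known of them, had 139, 134 and 187 reads in soy libraries against 71, 68 and 0 reads in the regular ones. Its soy levels all lay above its regular levels, with a log2 fold change of 1.64 ± 0.995 (SE; edgeR adjusted p = 0.982). miR-145a-5p went the other way, at 45.2, 48.7 and 55.0 CPM in the soy livers, against 99.4, 84.2 and 106.1 CPM in the regular ones. Its log2 fold change was -0.96 ± 0.22 (SE; edgeR unadjusted p = 0.00135, adjusted p = 0.295), and no other tested microRNA of the list had an unadjusted p under 0.05. The 2 most abundant were miR-143-3p at 0.23 ± 0.18 and miR-107-3p at 0.11 ± 0.18 (log2 fold change ± SE). The study itself gave miR-145a-5p a positive log2 fold change in soy-fed livers, opposite in sign to the value here. The same held for miR-455-3p, at -1.98 ± 0.41 here (SE; edgeR adjusted p = 0.295). By qRT-PCR the study also reported both microRNAs as higher in soy-fed livers. All fold changes given here, those of the members included, take the diet of each library from its deposited label. The cause of these opposite signs was not tested.

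The microRNAs whose levels ran most like the guides were sought among 106 others with a mean of at least 100 CPM, by the root mean square difference of log2 (CPM + 0.5) after each was centred on its own mean over the 6 libraries. For miR-192-5p these were miR-151-5p (0.0872), miR-24-3p (0.112) and miR-181c-5p (0.114), against a median of 0.269 over the candidates. For miR-194-5p they were miR-29a-3p (0.0538), miR-30a-5p (0.0798) and miR-30b-5p (0.0817), against a median of 0.242. For miR-215-5p the nearest were miR-144-5p (1.47), let-7e-5p (1.48) and let-7i-5p (1.53), not far below the 1.79 by which miR-215-5p itself departed from its mean, so that no abundant microRNA ran close to it. miR-375-3p, low in the same replicate 1 libraries, had a mean of 65.3 CPM and so was not among the candidates. These are descriptions over 6 libraries that share their scaling.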

How the data were processed

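Small RNA of 6 mouse livers was sequenced on an Illumina instrument after TruSeq library preparation (single-end, 75 bp). The authors assigned reads to mature microRNAs; for the aligner, build and miRBase release nothing is stated in the sources used here. The deposited counts are whole reads per mature microRNA, unscaled. The deposited log2 values are counts that the authors scaled and log2-transformed, absent below 4 reads; when checked, their factors equalled ratios of library totals (microRNAs with 4 reads or more), with deviations of at most 1.01e-13 log2 units, although the methods name DESeq2's geometric-mean scaling. Of the sample columns, 0 were left unused.

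Counts of the 437 microRNAs that reached 4 reads in 3 or more libraries were tested by quasi-likelihood in edgeR 4.0.16 under R 4.3.3, with TMM scaling, no covariate and Benjamini-Hochberg adjustment at 0.05 over all of them. SE is the fold change divided by the square root of F. DESeq2 1.42.0 and limma 3.58.1 were alternatives. Shares and ratios had two-sided exact permutation tests over 20 assignments, with 0.5 read added in ratios. Intervals and 3-read limits cover counting error only, since no molecular identifiers were used.

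Replicates were compared first: their counts differed at a chi-square of 229.3 or more per degree of freedom, so none looked like 1 library deposited again. The steps were tested on simulated data. Sequences are from RefSeq (GRCm38.p6); of 1907 names, 1623 were matched. The text names all members, the 3 microRNAs most like each abundant guide, and the 2 most abundant or the defining members of the lists it details. The members and lists were chosen with earlier results of these data known.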

Additional observations from a re-analysis of the deposited data

How the results depend on the processing

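None of the 7 members was called by the main test, and 3 (miR-192-5p, miR-194-5p and miR-194-1-3p) kept both their direction and that status under each of the 16 alternatives, with log2 fold changes of 0.0066 to 0.30, 0.087 to 0.22 and 1.32 to 4.18. miR-215-5p kept its direction under all 16 (0.61 to 1.60) and was called under 2 of them, without the filter on low counts (1.14) and with the replicate block (0.86, adjusted p = 0.00987). In place of 0 microRNAs called in all, edgeR called 8 without the filter and 5 of 437 (1.14%) with the replicate block, and DESeq2 called 2. The replicate numbers gave no clear sign of pairing the mice. Deviations from the group means correlated at 0.080, -0.094 and 0.018 between same-numbered libraries. Soy replicate 1 and regular replicate 1 alone correlated best with their own number. A shared order of handling was not tested. On the deposited log2 values, where regular replicate 1 is absent for miR-215-3p, that arm was at -1.08. Without both replicate 1 libraries, a setting chosen after seeing the data, miR-192-3p was at -0.14, and the differences of the log2 ratios were 0.36 for miR-192-5p over miR-192-3p and 0.71 for miR-215-5p over miR-215-3p.

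With each library left out in turn, log2 fold changes ran from -0.055 to 0.40 for miR-192-3p, -0.44 to 0.43 for miR-194-2-3p, -0.22 to 1.14 for miR-215-3p, 0.61 to 1.60 for miR-215-5p and 1.37 to 4.18 for miR-194-1-3p, and 0 to 0 microRNAs were called. Differences in the share of reads ran from -0.105 to 2.26 percentage points for all members and -0.134 to 2.22 for the shared-seed guides, negative without soy replicate 1 (-0.0682 and -0.113) or regular replicate 3. Differences of log2 ratios ran from -0.35 to 0.19 for miR-192-5p over miR-192-3p, -1.85 to 0.74 for miR-215-5p over miR-215-3p, -0.48 to 2.17 for miR-215-5p over miR-192-5p, -0.090 to 0.12 for miR-194-5p over miR-192-5p and -0.45 to 0.32 for miR-194-5p over its 3p arms; that of miR-194-2-3p over miR-194-1-3p stayed negative, at -4.92 to -1.18. The cause of these turns was not tested. Of the 192 recomputed values, 165 were counted as unchanged and 22 turned sign. The rest were the 2 calls of miR-215-5p and 3 changed numbers of called microRNAs. For fold changes, unchanged means the same direction and side of the threshold. For shares and ratios it means the same direction alone, and for the number called an equal number. The sparse 3p arms limit the reading of the loci, since 0 to 97 reads of miR-194-1-3p stand behind each value.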

Other observations

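The low replicate 1 libraries of miR-215-5p were not a feature of most microRNAs. In 8 of the 437 microRNAs tested, soy replicate 1 and regular replicate 1 both lay more than 3 times below the lowest of the other 4 libraries. For the other pairs of libraries the same count ran from 0 to 8, and it was 8 also for soy replicate 1 with regular replicate 3. Of the 8, miR-215-5p was the sole microRNA with a mean of at least 100 CPM. miR-215-3p and miR-375-3p were among them, and so was miR-33-5p, which is made from an intron of the sterol regulator gene Srebf2 and lowers cholesterol export. miR-33-5p had 0, 54 and 98 reads in soy replicates 1, 2 and 3 against 0, 42 and 28 reads in regular replicates 1, 2 and 3. Its zeros allow up to 0.235 CPM in soy replicate 1 and 0.293 CPM in regular replicate 1 (3 reads of the library total). The 4 others, miR-188-5p, miR-296-5p, miR-540-3p and miR-331-5p, had at most 21 reads in any library.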
